A study of Danio rerio with 2 samples.

Results

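Semaphorins are extracellular guidance cues, plexins are their main receptors, and the plexin-domain proteins are membrane proteins that carry a short domain shared with plexins. Their genes were taken from a count table of zebrafish (Danio rerio) heart RNA as every row whose symbol began with sema and a digit, with plxn and a letter from a to d, or with plxdc. This gave 44 of 32057 genes, namely 30 semaphorin, 12 plexin and 2 plexin-domain genes, under 43 symbols, since plxnb2a stood for 2 gene IDs. The RNA came from dissected hearts at 96 hours post fertilisation. The library of foxc1a nju18 fish, which carry an allele of a forkhead transcription factor gene, is called the nju18 library here, and that of the wild-type strain TU is called the TU library. The sources used here do not say what the allele does to the protein, whether carriers were homozygous, or how many hearts went into each library.

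Semaphorins of class 3 are secreted and usually bind a plexin together with a neuropilin, whereas classes 4 to 7 are tied to the membrane and mostly bind plexins directly. Inside the cell, plexins switch off small GTPases of the Ras and Rap type, and proteins of the CRMP and MICAL families carry the signal on to microtubules and actin. The pathway is best known for steering growing axons. In mice it also shapes the heart: Sema3c and Plxnd1 are needed to divide the outflow tract, where neural crest cells and vessel walls meet. Plexin-domain proteins are not known as semaphorin receptors, and PLXDC1 was described in human tumour vessels as a tumour endothelial marker.

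With 1 library per genotype there was no replicate spread, so no difference below was tested and no p-value was computed. The nju18 library held 17467109 counted reads and the TU library 20049851. For foxc1a itself they held 798 and 629 reads, which is no check of the labels, since no source used here says how the allele bears on its transcript; the libraries are named by label only. Levels are CPM (counts scaled to the library size) scaled with edgeR's TMM factors, log2 ratios compare CPM with 1 CPM added (nju18 minus TU), and ratios have nothing added. A gene is called beyond 2-fold when its log2 ratio with 1 CPM added is at least 1 or at most -1, a rule that is stricter than the plain ratio for low genes. Each ratio has an exact 95% Clopper-Pearson interval that covers counting error only and compares these libraries, not the genotypes. Total-count scaling would lower each log2 ratio by up to 0.29, and all signs below are relative to TMM scaling. Fewer cells of a type, less RNA per cell and unequal amounts of tissue from outside the heart cannot be told apart here.

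Most of the family was expressed at low to moderate level, and few members differed greatly between the libraries. Of the 44 genes, 40 had 10 or more reads in at least 1 library and 31 reached 5 CPM in at least 1 library; the latter are called measured. Of these 31, 5 reached 5 CPM in the TU library only (sema3bl, sema3ga, sema4f, sema7a and plxna2) and 3 in the nju18 library only (plxdc1, sema3c and plxnc1), so the filter itself favours a difference in them. Just inside the 10-read limit lay sema4gb with 2 and 10 reads and the less abundant plxnb2a ID with 7 and 11. Just outside lay sema3e with 2 and 9 reads and sema4aa with 0 and 7, and sema6ba (2 and 6) and sema6bb (2 and 2) were also undetected. sema3e, whose mouse counterpart repels vessels through Plxnd1, was thus too rare here for any comparison.

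**Figure D1:**
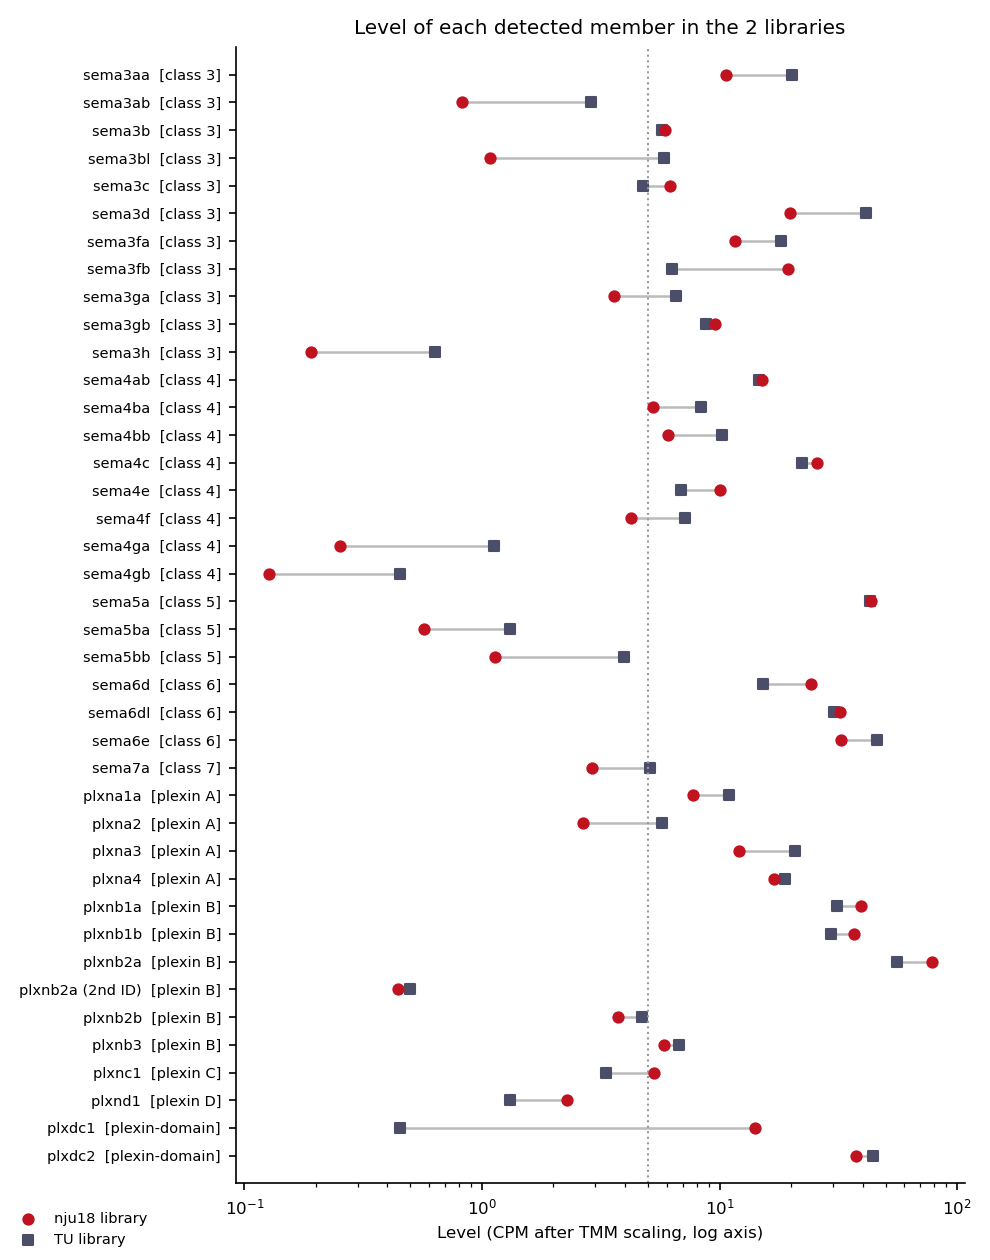
Level of each of the 40 detected genes in the nju18 (circles) and TU (squares) library, in CPM on a log axis, grouped by class; the dotted line marks 5 CPM. The widest gap is that of plxdc1 (14.1 and 0.451 CPM), and for genes such as sema5a (43.3 and 43.1 CPM) the symbols coincide.

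Of the 31 measured genes, 2 lay above a 2-fold ratio in favour of the nju18 library (plxdc1 and sema3fb) and 2 lay as far below (sema3bl and sema3d). Over all 12259 measured genes the shares were 9.61% and 11.1%, together 20.7%, so the family as a whole did not hold more such genes than the background. Its median log2 ratio was -0.14, beside 0.04 for all measured genes, and 16 of 31 members were below 0, beside 47.6% of all measured genes. The counting interval lay wholly below 1 for 14 members and wholly above 1 for 9, where the shares over all measured genes were 37.5% and 41.8%. No direction common to the family was seen, and the accounts below are of single genes and branches. With all 40 detected genes, 2 were beyond 2-fold upwards and 4 downwards, where the shares over all genes with as many reads were 7.54% and 10.6%. With total-count scaling 22 members were below 0, beside 7663 of all 12259 measured genes. Under that scaling 5 members were at least 2-fold lower, the additional ones being sema3aa, plxna2 and plxna3. The share of all measured genes that were as far below under that scaling is not given here, so nothing is read from this count. The 6 genes whose sign turned were sema3b, sema3gb, sema4ab, sema4c, sema5a and sema6dl.

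**Figure D2:**
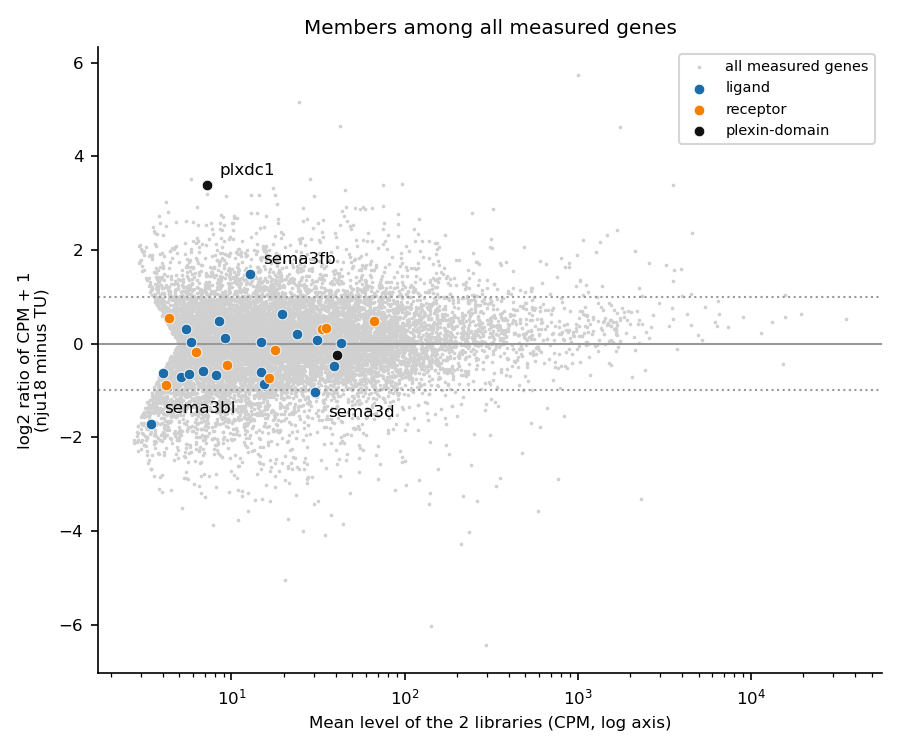
log2 ratio of CPM + 1 (nju18 minus TU) against the mean CPM of both libraries, for all 12259 measured genes (grey) and the 31 measured members, coloured as ligand (semaphorin), receptor (plexin) or plexin-domain gene. Dotted lines mark 2-fold; 4 members lie beyond them and plxdc1 stands near the top of all genes.

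plxdc1 showed the widest difference of the family. It (ENSDARG00000078417) had 222 reads in the nju18 library and 10 in the TU one, or 14.1 and 0.451 CPM. It was thus a clearly expressed gene in the first library and at the edge of detection in the second. The ratio was 31.2 (counting interval 16.6 to 65.9), the log2 ratio was 3.38, and this placed it 10th from the top of the 12259 measured genes. The gene was measured only through its level in the nju18 library, so the filter itself favoured a high ratio and rank. The interval is wide because it rests on 10 reads. The other plexin-domain gene, plxdc2 (named plxdc2b in RefSeq), did not share this pattern, with 590 and 985 reads, 37.4 and 44.4 CPM and a ratio of 0.841 (0.758 to 0.932). Of the reads of both genes together, plxdc2 made up 72.7% (69.5 to 75.7) in the nju18 library and 99.0% (98.2 to 99.5) in the TU one, a comparison that needs no library scaling. Per gene length, where values are FPKM, plxdc1 stood at 6.68 beside 7.32 for plxdc2 in the nju18 library and at 0.262 beside 10.6 in the other.

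Markers of the endothelium, the cell type in which human PLXDC1 was described, did not stand apart in the same way. All 14 of the endothelial and endocardial markers were measured, with 0 beyond 2-fold upwards and 1 downwards, and they summed to 1043 CPM in the nju18 and 1009 CPM in the TU library. Skeletal muscle markers had 11 of 13 measured genes at least 2-fold higher and a sum of 12169 against 2529 CPM. Cardiomyocyte markers summed to 26084 against 8888 CPM, with 7 of 11 at least 2-fold higher. Liver and gut markers summed to 993 against 452 CPM, with 4 of 9 measured genes at least 2-fold higher and 2 lower. Epidermis markers summed to 12983 against 8415 CPM, with 2 of 7 measured genes at least 2-fold higher and 2 lower. No endothelial or cardiomyocyte marker was at 0 in either library, and 1 skeletal muscle marker was at 0 in the TU one. The part of any cell type in the plxdc1 difference was not tested.

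Class 3, the secreted semaphorins, held the other 3 genes beyond 2-fold. Of its 12 genes 9 were measured, with 1 beyond 2-fold upwards and 2 downwards (9.61% and 11.1% of all measured genes), and the median log2 ratio was -0.61. The interval lay wholly below 1 for 5 of the 9 and wholly above 1 for 1, beside 37.5% and 41.8% of all measured genes. With so few genes, 2 of them measured through the TU library only and sema3c through the nju18 library only, nothing is read from these counts. Class 3 took 30.4% (29.0 to 31.7) of all semaphorin reads in the nju18 library and 35.9% (34.8 to 37.0) in the TU one, and 35.0% and 43.3% of the summed semaphorin FPKM. Of these class 3 reads, sema3d alone held 312 of 1404 in the nju18 and 916 of 2696 in the TU library. The class share is therefore not read as a shift of all its genes.

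sema3d, studied in zebrafish for its part in axon pathfinding and neural crest migration, was the most abundant semaphorin per gene length in the TU library. It had 312 reads in the nju18 and 916 in the TU library, or 19.8 and 41.3 CPM, and was 2.09 times lower in the former (counting interval 1.84 to 2.39). On the FPKM scale it stood at 16.2 in the TU library, far above the next ligand, sema5a, at 8.25. In the nju18 library it stood at 6.35 FPKM, behind sema6dl (7.08), sema5a (6.77) and sema6d (6.47), a close group. Its share of the summed semaphorin FPKM was 10.1% there and 17.8% in the TU library. Its log2 ratio of -1.03 lay just beyond the 2-fold limit, and plxna2 (-0.88) and sema3aa (-0.87) lay just within it.

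sema3bl had the lowest log2 ratio of the measured members, -1.72. It had 17 and 129 reads, or 1.08 and 5.82 CPM, and was 5.40 times lower in the nju18 library (counting interval 3.25 to 9.56). It was measured only through its level in the TU library, so a low level in the other had to give a low ratio. In the order of genes on zebrafish chromosome 8 (RefSeq, assembly GRCz12tu, used for order alone) it lies next to sema3b, its relative. sema3b had 93 and 127 reads and 5.89 and 5.73 CPM, a ratio of 1.03 (0.778 to 1.35). sema3bl therefore made up 15.5% (9.27 to 23.6) of the reads of this neighbouring pair in the nju18 library and 50.4% (44.1 to 56.7) in the other.

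The sema3f copies went opposite ways. Mammalian Sema3F acts mainly through neuropilin 2, and zebrafish carry duplicates of it, sema3fa and sema3fb. sema3fb had 307 reads in the nju18 and 140 in the TU library, or 19.4 and 6.31 CPM, giving a ratio of 3.08 (interval 2.51 to 3.79). sema3fa had 183 and 403 reads, or 11.6 and 18.2 CPM, and was 1.57 times lower (1.31 to 1.88). The more abundant copy was thus sema3fb in one library and sema3fa in the other. sema3fb made up 62.7% (58.2 to 67.0) of their joint reads in the nju18 library and 25.8% (22.2 to 29.7) in the TU one. Corrected for gene length, its share of the pair's FPKM was 54.1% and 19.6%.

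**Figure D3:**
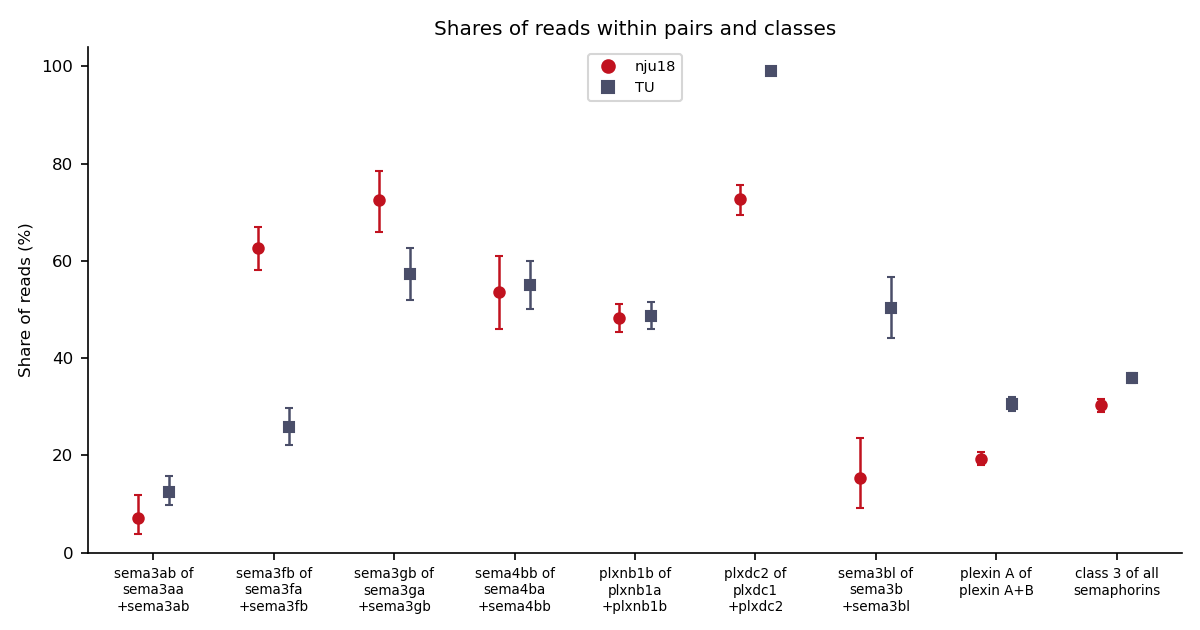
Share of reads (%) taken by one gene of a pair, or by one class of a larger set, in the nju18 (circles) and TU (squares) library. Intervals are exact 95% binomial ones covering counting error only. Pairs with under 100 reads and the sema6c pair (named sema6d and sema6e in the counts) are not drawn. The sema3f pair crosses over (62.7% and 25.8%), whereas the shares within the sema3a, sema4b and plxnb1 pairs have overlapping intervals.

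In the other duplicated pairs with 100 or more reads whose symbols pair them in the counts, the shares differed less. The sema6c copies, paired by their RefSeq names only, are described below without shares. In the sema3a pair, sema3ab took 7.18% (3.88 to 12.0) of reads in the nju18 and 12.5% (9.76 to 15.7) in the TU library. In the sema3g pair, sema3gb took 72.6% (66.0 to 78.5) of reads in the nju18 and 57.4% (51.9 to 62.7) in the TU library, with sema3ga at 3.61 and 6.54 CPM and sema3gb at 9.56 and 8.79 CPM. In the sema4b pair, sema4bb took 53.6% (46.0 to 61.1) and 55.1% (50.2 to 60.0), and both copies were lower in the nju18 library. In the plxnb1 pair, plxnb1b took 48.3% (45.4 to 51.1) and 48.8% (46.1 to 51.5). The intervals of the sema3a, sema4b and plxnb1 pairs overlapped, which does not show that their shares were equal. The sources used here do not say how reads shared by close copies were counted, so the split within each pair carries that uncertainty.

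The remaining class 3 genes included sema3aa, the zebrafish counterpart of the axon repellent Sema3a, with 168 and 448 reads and 10.6 and 20.2 CPM. It was 1.90 times lower in the nju18 library (counting interval 1.59 to 2.28). Its copy sema3ab, under 5 CPM in both libraries, had 13 and 64 reads. Both copies were therefore lower in the same library. sema3c, whose mouse counterpart acts in the outflow tract, had 98 and 106 reads and a counting interval of the ratio (0.976 to 1.73) that held 1. sema3h, at 3 and 14 reads, was near the detection limit.

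Of the membrane-bound ligands of class 4, 3 of 6 measured genes were below 0, beside 47.6% of all measured genes. Their log2 ratios ranged from -0.67 to 0.49, with none of the 6 beyond 2-fold, beside 20.7% of all measured genes. Lower in the nju18 library were sema4ba (83 and 185 reads, 5.26 and 8.34 CPM), sema4bb (96 and 227 reads, 6.08 and 10.2 CPM) and sema4f (67 and 159 reads, 4.24 and 7.17 CPM). Each had an interval wholly below 1, as 37.5% of all measured genes did. Of these, sema4f was measured through the TU library only. sema4e was higher, with 158 reads in the nju18 and 152 in the larger TU library, a ratio of 1.46 (1.16 to 1.84). Per gene length the most abundant of the class was sema4c, whose mammalian product binds plexin B2, at 5.91 and 6.27 FPKM. It had 25.8 and 22.3 CPM and a ratio of 1.15 (1.01 to 1.32). sema4ab had 15.1 and 14.7 CPM.

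Classes 5 to 7 held some of the most abundant ligands with the smallest differences. sema5a, which carries thrombospondin repeats, had 684 and 956 reads and 43.3 and 43.1 CPM, with a counting interval of the ratio from 0.909 to 1.11. Both sema5b copies were under 5 CPM and lower in the nju18 library, sema5ba with 9 and 29 reads and sema5bb with 18 and 88. Class 5 thus consisted of an abundant gene close to equality and a pair of rare ones.

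In class 6, the names need care, since the symbols of the count table are older than those of RefSeq. The row named sema6dl is sema6d in RefSeq, whose chick counterpart acts in heart development through plexin A1, while the rows named sema6d and sema6e are sema6ca and sema6cb there. sema6dl had 507 and 673 reads and 32.1 and 30.3 CPM, a ratio of 1.06 (0.941 to 1.19). The sema6ca row had 382 and 337 reads and 24.2 and 15.2 CPM, a ratio of 1.59 (1.37 to 1.85), and the sema6cb row had 515 and 1021 reads and 32.6 and 46.0 CPM, a ratio of 0.708 (0.636 to 0.788). These sema6c copies therefore also leaned in opposite directions, though both within 2-fold. sema7a, the class 7 gene whose product is held by a lipid anchor and can bind plexin C1, had 46 and 113 reads. It was 1.75 times lower in the nju18 library (1.23 to 2.52). plxnc1 had 84 and 74 reads and a ratio of 1.59 (1.15 to 2.21). sema7a reached 5 CPM in the TU library only and plxnc1 in the nju18 library only. The filter itself thus favours opposite directions in them, and nothing is read from the contrast.

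**Figure D4:**
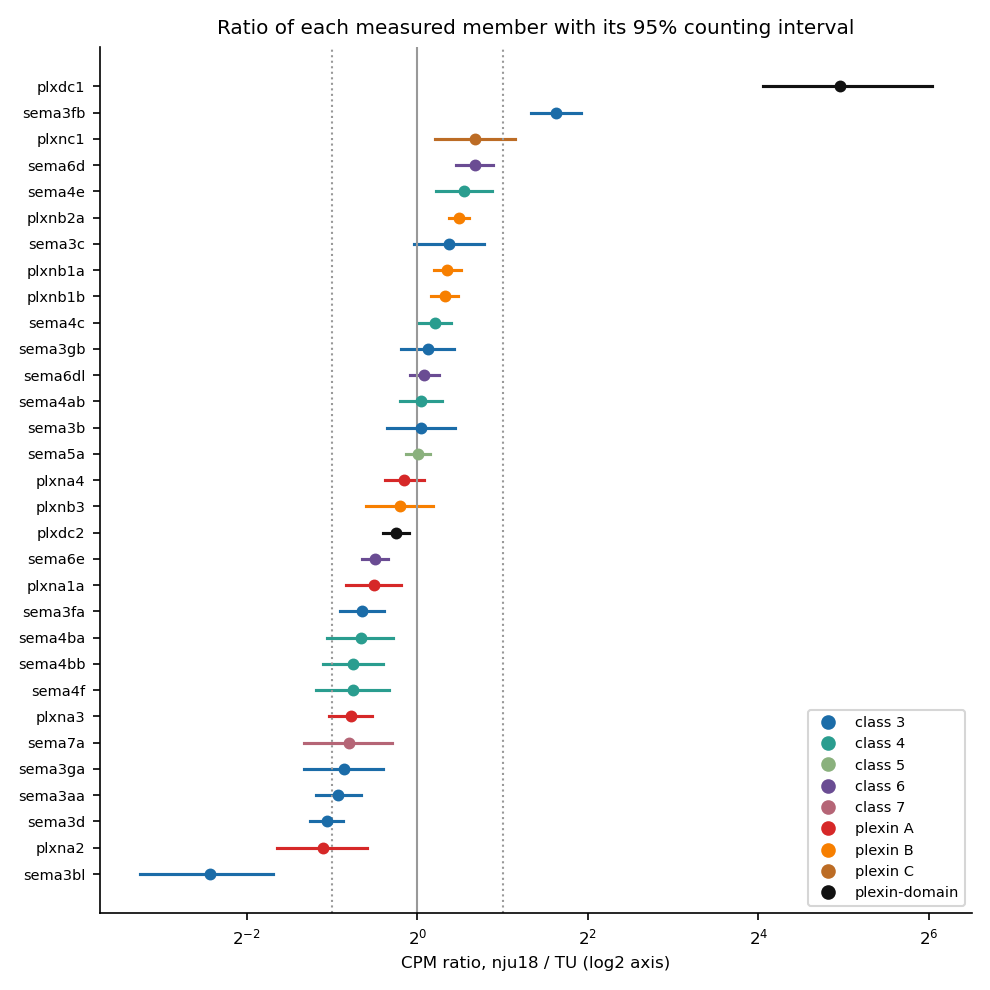
CPM ratio (nju18 over TU, log2 axis) of the 31 measured members with exact 95% counting intervals, coloured by class and sorted. plxdc1 (31.2) and sema3fb (3.08) lie above the 2-fold line and sema3bl (0.185) far below the lower line, which sema3d (0.478) and plxna2 (0.464) just pass, with the plexin A genes to the left of 1 and plxnb1a, plxnb1b and plxnb2a to the right.

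Among the plexins, none of the 9 measured genes was beyond 2-fold on the scale with 1 CPM added, beside 20.7% of all measured genes. All 4 plexin A genes, the usual signalling partners of neuropilins, had ratios below 1, beside 47.6% of all measured genes. The interval lay wholly below 1 for 3 of them, beside 37.5% of all measured genes. One of the 3, plxna2, was measured through the TU library only. plxna3, which guides motor axons in zebrafish, had 190 and 459 reads and 12.0 and 20.7 CPM, and was 1.72 times lower in the nju18 library (counting interval 1.45 to 2.05). plxna2 had 42 and 127 reads and 2.66 and 5.73 CPM, 2.15 times lower with nothing added (1.51 to 3.13), and plxna1a had 122 and 244 reads and 7.72 and 11.0 CPM. plxna4 was the nearest to equality, with 268 and 418 reads and a ratio of 0.900 (0.769 to 1.05).

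Of the 4 measured plexin B genes, 3 were higher in the nju18 library, each with an interval wholly above 1, beside 41.8% of all measured genes. With total-count scaling their log2 ratios were only 0.19 (plxnb2a), 0.06 (plxnb1a) and 0.03 (plxnb1b). plxnb2a had 1233 and 1235 reads and 78.1 and 55.7 CPM, a ratio of 1.40 (1.29 to 1.52). plxnb1a, whose mammalian counterpart is the receptor of Sema4D, had 39.6 and 31.1 CPM and a ratio of 1.27 (1.14 to 1.42), and plxnb1b had 36.9 and 29.6 CPM and a ratio of 1.25 (1.11 to 1.40). The exception was plxnb3, at 5.82 and 6.72 CPM with a ratio of 0.867 (0.661 to 1.13). plxnb2b, just under the 5 CPM limit, had 59 and 105 reads and a ratio of 0.789. The less abundant plxnb2a ID had a ratio of 0.894, and both intervals held 1. With so few genes, nothing is read from a contrast of the A and B branches.

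Set against each other, plexin A genes took 622 of 3221 reads of the A and B genes in the nju18 library, 19.3% (exact binomial interval 18.0 to 20.7), and 1248 of 4093, or 30.5% (29.1 to 31.9), in the TU library. This share does not depend on library scaling. Of the plexin B reads, plxnb2a (ENSDARG00000003811) alone held 1233 of 2599 in the nju18 and 1235 of 2845 in the TU library. The share is therefore not read as a shift of all genes of a branch. Per gene length plxnb2a was the leading plexin in both libraries, at 9.38 and 8.19 FPKM, followed by plxnb1a at 4.30 and 4.13. Next came plxnb1b (3.05) in the nju18 and plxna3 (3.47) in the TU library.

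plxnd1, the endothelial receptor of Sema3e and partner of Sema3c in mice, was low, with 36 and 29 reads and 2.28 and 1.31 CPM, a ratio of 1.74 (1.04 to 2.95). The gene length implied by its deposited FPKM was 1194 bases, whereas those of the measured plexins ran from 5096 to 10935 bases. Its count thus covers a short gene model, and how much of the transcript that model holds was not tested. Level and ratio of plxnd1 rest on few reads and are given as such.

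The 9 detected genes under 5 CPM mostly had fewer reads in the nju18 library. The ratio was below 1 for 8 of these 9 (all except plxnd1), beside 60.3% of the 7537 genes in the same range, and the interval lay wholly below 1 for 4 (sema3ab, sema4ga, sema5ba and sema5bb), beside 33.1%. sema4ga, with 4 and 25 reads, was the other gene of this group not yet described. However, sema3h, sema4ga, sema4gb, sema5ba and the less abundant plxnb2a ID reached the detection limit in the TU library only. That limit itself thus favours a ratio below 1 in them, and nothing is read from the counts over these 9 genes.

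The measured neuropilins, coreceptors of class 3 ligands, were within 2-fold between the libraries. nrp1a had 1080 and 1171 reads and 68.4 and 52.8 CPM, with a counting interval of the ratio from 1.19 to 1.41. nrp2b had 48.8 and 42.0 CPM (1.16, interval 1.06 to 1.28), and nrp2a had 36.6 and 44.7 CPM (0.818, interval 0.737 to 0.907). nrp1b, with 52 and 85 reads, was under 5 CPM. Of 12 listed coreceptors, 11 were found and 6 were measured. Of these 6, 0 were beyond 2-fold in either direction, beside 20.7% of all measured genes. Their median log2 ratio was 0.16, or -0.13 with total-count scaling, beside 0.04 for all measured genes with TMM scaling. With so few genes, nothing is read from the count. The measured ones besides the neuropilins were kdrl, met and ptk7a, at log2 ratios of 0.10, 0.07 and 0.28. Under 5 CPM, the L1 adhesion genes, neuronal partners of neuropilin 1 in mammals, were lower in the nju18 library: l1camb had 3 and 76 reads, 18.0 times lower (5.94 to 89.4), and l1cama had 2 and 20. Both L1 genes were named after their values were seen. Each had 10 or more reads in the TU library only, so the 10-read limit itself favours a low ratio in them. Also under 5 CPM were erbb2 (34 and 51 reads, ratio 0.936) and cntn2 (1 and 10 reads).

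Of the listed intracellular transducers, 23 were measured. Of these 23, 1 lay beyond 2-fold upwards and 6 downwards, beside 9.61% and 11.1% of all measured genes. Their median log2 ratio was -0.18, beside 0.04 for all measured genes. The lower ones included 5 genes of the CRMP family, which bind tubulin downstream of class 3 semaphorins. crmp1 had 16 and 195 reads and was 8.68 times lower in the nju18 library (counting interval 5.21 to 15.5). dpysl4 had 18 and 173 reads, dpysl5a 62 and 403, dpysl5b 119 and 774, and dpysl2b 26 and 140, with log2 ratios from -2.07 to -1.47. The size of the difference was not uniform in the family. dpysl3, also named after its value was seen, had 34.1 and 49.9 CPM, a log2 ratio of -0.54 (interval of the ratio 0.614 to 0.757). dpysl2a, under 5 CPM and likewise named afterwards, had 10 and 66 reads and was 4.70 times lower (2.40 to 10.3). The sixth measured gene beyond 2-fold downwards was the kinase gene fyna (log2 ratio -1.41), named after its value was seen. Of these 6 lower genes, only dpysl5b (7.54 and 34.9 CPM) reached 5 CPM in both libraries. The others were measured through the TU library only, so the filter itself favours a low ratio in them.

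The higher transducer was mical2b, of the MICAL family of enzymes that oxidise and take apart actin filaments. It had 1529 and 649 reads and 96.8 and 29.3 CPM, giving a ratio of 3.31 (interval 3.02 to 3.63), and its copy mical2a, named for that reason, stood at 34.4 and 18.3 CPM.

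**Figure D5:**
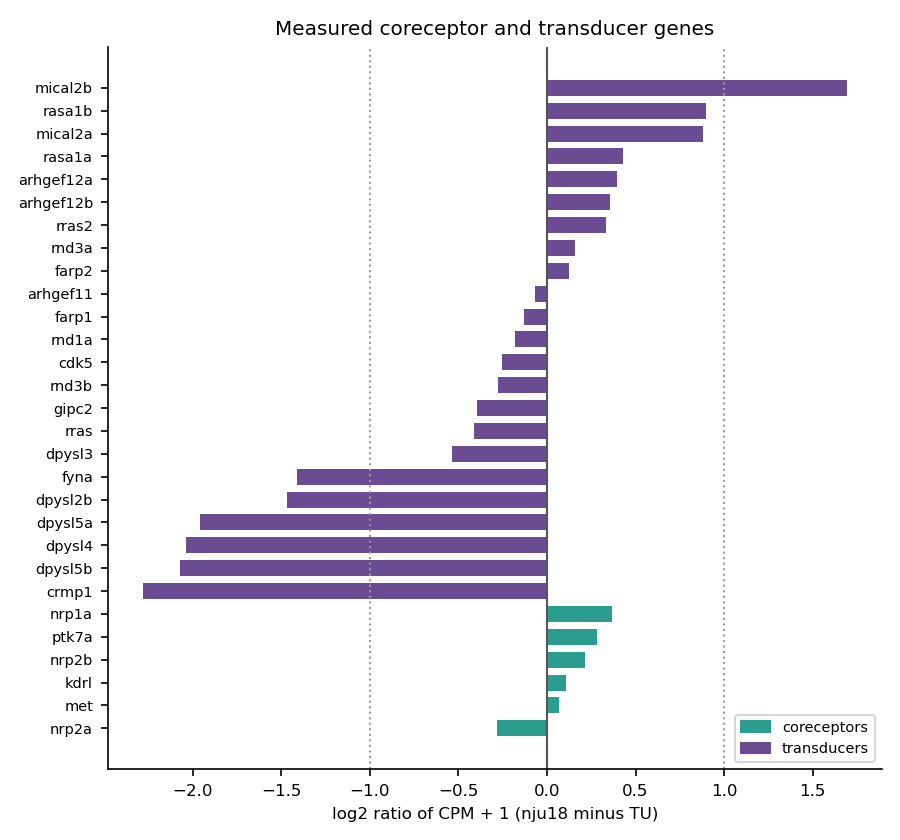
log2 ratio of CPM + 1 (nju18 minus TU) for the measured coreceptor (6 genes) and transducer (23 genes) genes; dotted lines mark 2-fold. CRMP family genes (crmp1 and dpysl genes) form the lower end, from -2.28 for crmp1, and mical2b the upper end at 1.69.

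Markers of nervous tissue, in which CRMP genes and several semaphorins are also expressed, were also lower in the nju18 library. Of all measured genes, 11.1% were at least 2-fold lower, 9.61% at least 2-fold higher and 47.6% below 0. Of 12 measured neuron and glia markers, 5 were at least 2-fold lower and 1 at least 2-fold higher, and all 15 listed genes summed to 287 CPM in the nju18 and 522 CPM in the TU library. The 11 eye markers, all at least 2-fold lower, summed to 351 and 3011 CPM. The 5 epicardial markers summed to 34.6 and 50.7 CPM with 2 at least 2-fold lower, and the 8 measured cartilage and bone markers were all below 0, 3 of them beyond 2-fold. Red cell markers summed to 844 and 2500 CPM, with 4 of 6 measured genes at least 2-fold lower. Leukocyte markers summed to 33.1 and 46.4 CPM and smooth muscle markers to 704 and 903 CPM. None of the neuron, eye, epicardial or cartilage markers was at 0 in either library. The part of any of these tissues in the lower levels of sema3d, sema3aa, sema3bl, the plexin A genes and the CRMP genes was not tested. The amount of tissue from outside the heart, such as eye, in each library was not tested either.

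The authors' deposited table of comparisons called 4 members different. It called 4.24% of its 23256 genes higher and 7.63% lower in the nju18 library. In the authors' deposited table plxdc1 had a log2 fold change of 4.92 (FDR 3.0e-15) and sema3fb one of 1.59 (FDR 0.0295), both called higher. In the authors' deposited table sema3bl stood at -2.47 (FDR 0.000615) and sema5bb at -1.83 (FDR 0.0370), both called lower. sema3d was at -1.10 (FDR 0.519) in the authors' deposited table and was not called. The other 39 members were not called either.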

How the data were processed

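RNA came from dissected, flash-frozen zebrafish hearts, 1 library for each genotype, grouped by the genotype label. As tools, the submitters' processing notes list HISAT2, featureCounts, Trimmomatic and bcl2fastq, and as build GRCz11, without versions or settings. The authors deposited raw counts, FPKM values, and a comparison table (named for EBSeq) holding a normalised signal per library, a fold change (ratio), its log2 value and an FDR, used as a q-value. The normalised signal equals the deposited count divided by size factors of 0.854 and 1.17. The sources used here do not say how an FDR came from single libraries.

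CPM were computed from the counts with TMM factors of 0.904 and 1.11 (edgeR 4.0.16, R 4.3.3; DESeq2 1.42.0 size factors as an alternative). FPKM follow library totals and served for levels within a library. Intervals are exact binomial ones, conditional on both libraries' reads (Python 3.11.15 with scipy 1.17.1). They cover counting error only, since 1 library per genotype gives no replicate spread. The reads carry no molecular identifiers, so reads and not molecules were counted. The 2-fold rule of size was applied at 5 CPM or more in at least 1 library. All members are accounted for; of the coreceptor and transducer lists, neuropilins and up to 6 measured genes with the largest absolute log2 ratio are named, and others were named after their values were seen. Members and lists were chosen with earlier results of these data known. RefSeq (GRCz12tu) gave names and gene order for the 39 members matched by Entrez ID. The scripts were tested on simulated data.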

Additional observations from a re-analysis of the deposited data

How the results depend on the processing

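The 2 higher and 2 lower members were counted again under other settings. Shares over all genes stand above for the main setting and the 10-read filter only, so nothing is read from the counts under the others. The count of higher members was 1 with the deposited FPKM (sema3fb lay inside the limit), 1 with a 4-fold rule, 1 without the plexin-domain genes, 0 with a filter of 20 CPM, and 2 or 3 otherwise. The count of lower members was 5 with total-count scaling, 4 with a filter of 10 reads and with no expression filter, 10 with a 1.5-fold rule, 1 with a filter of 20 CPM, 0 with 5 CPM added and 0 with a 4-fold rule, and 2 or 3 otherwise. The rule, the filter and the added CPM act by construction; the cause of the shift under total-count scaling is its offset of 0.29. The median log2 ratio of the members was -0.14 and lay between -0.43 and -0.11, except that it was 0.0425 with the 20 CPM filter, over 12 genes, where all genes had 0.11. The value of -0.43 came with total-count scaling, where all genes had -0.26. With the deposited FPKM the members had -0.25 and all genes -0.21. Including the relatives left out by the symbol rule, an alternative added after seeing the data, gave 2 higher, 2 lower and a median of -0.18. Signs of 6 measured members (sema3b, sema3gb, sema4ab, sema4c, sema5a and sema6dl) turned with total-count scaling and with FPKM, and that of sema5a also with the authors' size factors. No paired analysis was possible because each genotype has 1 library, which also leaves no replicate to leave out. Depth limits the genes under 5 CPM most.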

Other observations

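Some relatives of the family lie outside the symbol rule. SEMA4D, written in capitals in the count table, had 66 and 85 reads in the nju18 and TU libraries, or 4.18 and 3.83 CPM. Through its gene ID, LO018148.1 is a further PLXNA1 gene in the reference name table, and it had 246 and 429 reads, or 15.6 and 19.3 CPM, a log2 ratio of -0.30. The tables also name plxnb2a.2 (si:ch211-127b11.1 in the count table), with 73 and 151 reads, a log2 ratio of -0.47 and a ratio of 0.679 (counting interval 0.506 to 0.903), opposite in direction to plxnb2a. plxnb2a.3 had 19 and 30 reads (ratio 0.889) and plxdc2a had 12 and 9, also under clone-based names. The PLXNA1 relative lay below 0 as the 4 plexin A genes did, and the plxnb2a relatives lay below 0 where 3 of 4 measured plexin B genes lay above it. However, plxnb2a.2 (4.62 and 6.81 CPM) was measured through the TU library only, so the filter favours a low ratio in it. The interval of plxnb2a.3 (0.473 to 1.63) held 1. Nothing is read from these relatives about the A and B branches.

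Genes next to the 4 measured members beyond 2-fold were read off the RefSeq gene order, as a choice made after seeing the data. Around plxdc1 on chromosome 12, the nearest measured genes on one side were sult1st6, adprh and mylpfb, with log2 ratios of 1.38, 0.54 and 2.88, and on the other hexim1, plcd3b and nmt1b, with 1.40, 0.11 and -0.37. Around sema3fb on chromosome 11 they were inka1a, gnai2a and mapkapk3 (1.18, 0.50 and 1.08) and arl8bb, bhlhe40 and itpr1b (-1.07, 0.17 and -0.35). Around sema3bl on chromosome 8 they were amt, si:dkey-20d21.12 and prkar2aa (1.42, 1.71 and 0.17) and sema3b, si:ch211-156j16.1 and rimkla (0.03, -0.01 and -0.30). Around sema3d on chromosome 18 they were LOC565175, prpf18 and sephs1 (0.14, -0.44 and 0.40) and pclob, lepa and rbm28 (-1.08, 0.03 and 1.02). Among members, sema3d lies next to sema3ab (13 and 64 reads) and sema3ab next to sema3e (2 and 9). Neither was measured, so both are absent from these neighbours. Beyond 2-fold higher were sult1st6, mylpfb and hexim1 near plxdc1, inka1a and mapkapk3 near sema3fb, amt and si:dkey-20d21.12 near sema3bl, and rbm28 near sema3d. Beyond 2-fold lower were arl8bb near sema3fb and pclob near sema3d. Over all measured genes the shares were 9.61% and 11.1%. Whether neighbours share a cause was not tested. mylpfb is also on the skeletal muscle marker list.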
